A study of Mus musculus with 4 samples.

Results

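Krt8-high transitional alveolar epithelial cells were 75 of the 30860 lung cells kept from the 8 matrices, and 75 of 521 cells in 6 epithelial classes. They were chosen by UMIs (unique molecular identifiers, each standing for 1 captured RNA molecule): at least 5 of *Krt8*, at least 1 of *Cldn4* and at least 1 of *Epcam* or *Cdh1*, with none of *Foxj1*, *Msln*, *Ptprc*, *Cdh5*, *Pdgfra* or *Cyp2f2*. *Krt8* encodes a keratin of simple epithelia, *Cldn4* a tight junction protein, and *Epcam* and *Cdh1* epithelial adhesion proteins. The 6 genes that had to be absent mark ciliated, mesothelial, immune, endothelial, fibroblast and club cells. The levels of these genes chose the cells, and the comparisons with other epithelial classes are therefore given as descriptions without a test.

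The alveolus is lined by flat alveolar type 1 (AT1) cells, across which gas is exchanged, and by cuboidal alveolar type 2 (AT2) cells, which make surfactant and act as progenitors of AT1 cells. After injury, AT2 cells pass through an intermediate state with high keratin 8 before they become AT1 cells, and this state is known for p53 target genes, cell cycle arrest, TGF-beta activation by integrins and accumulation in fibrotic lungs. The names pre-AT1 transitional state (PATS), damage-associated transient progenitor and Krt8+ alveolar differentiation intermediate have been used for it.

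All mice received 0.8 U/kg bleomycin into the trachea and were taken on day 14. The groups were 2 WT mice and 2 *Tubb3*-/- mice, the latter homozygous for a *Cre* sequence knocked into the start of *Tubb3* in every cell, with WT littermates as controls and an age range of 8 to 11 weeks for the study's mice. From each mouse came a whole-cell sample, freed of erythrocytes, and a second sample that was depleted of endothelial, immune, EpCAM+ and red cells and then enriched for mural cells by sorting. Sample tags named the mouse, and the 4 samples of each kind were pooled, so that epithelial cells of the mural cell-enriched libraries are those that escaped the depletion. There was no lung without bleomycin.

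*Tubb3*, the targeted gene, had 1.93 and 0.868 CPM (counts scaled to a common total of gene UMIs) in the whole-cell libraries of WT mice, where those of *Tubb3*-/- mice had 0.262 and 0.321. In the mural cell-enriched libraries it had 5.49 and 3.67 CPM in WT and 0.789 and 0.680 in *Tubb3*-/- mice. The libraries held 41462258 to 95036340 gene UMIs, with 9186 to 16299 UMIs in the median cell. In the transitional cells, *Tubb3* had 2 UMIs, both in 1 cell of WT mouse 2, and *Cre* had none. *Cre* was hardly detected anywhere, with 4 UMIs in all 30860 cells kept. Of the barcodes, 55 were present in more than 1 library; 1 of the 75 cells carried such a barcode, and no barcode was shared by a pair of them.

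The cells were spread over all mice. WT mice 1 and 2 gave 20 and 12 of them, and *Tubb3*-/- mice 1 and 2 gave 24 and 19. Of these, 5, 5, 8 and 2 came from the whole-cell libraries and 15, 7, 16 and 17 from the mural cell-enriched libraries. They were deep cells, with a median of 19626 UMIs (range 4536 to 55715), beside 13031 in AT1 and 20078 in AT2 cells. The median depth was 15669 and 19674 UMIs for the WT animals, below the 21703 and 22389 of the *Tubb3*-/- animals. Scrublet marked 3 of them as doublets, 1 each from WT mouse 1, WT mouse 2 and *Tubb3*-/- mouse 1, and all from the mural cell-enriched libraries.

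Of the markers given for the label, *Krt19*, a keratin that pairs with keratin 8, was detected in 70 of the 75 cells (93.3%, beside 85.3% of AT1 and 55.0% of AT2 cells). *Sfn*, the p53-induced cell cycle inhibitor 14-3-3 sigma, was in 72 (96%, beside 48.3% and 59.6%). *Krt18*, the usual partner of keratin 8 in filaments, was found in all 75 (beside 85.3% of AT1 and 92.1% of AT2 cells) with a median of 25 UMIs. *Krt7* did not set the cells apart from AT1 cells, with UMIs in 96% of transitional and 97.4% of AT1 cells. *Cdkn1a*, the p53 target that encodes the cyclin-dependent kinase inhibitor p21, was in 72 cells with a median of 22 UMIs. This was 96%, beside 72.4% of AT1 and 87.4% of AT2 cells. *Lgals3*, encoding galectin-3, was in 73, but AT1 and AT2 cells also had *Lgals3* in 92.2% and 87.4%, and immune cells had it at 1087 CPM. *Areg*, encoding the EGF receptor ligand amphiregulin, was in 54 (72%, beside 20.7% of AT1 and 68.2% of AT2 cells). The airway basal cell genes *Krt5*, *Krt14*, *Krt15* and *Trp63* had no UMI, and *Mki67*, a proliferation gene, had 4 UMIs in 4 cells.

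**Figure D1:**
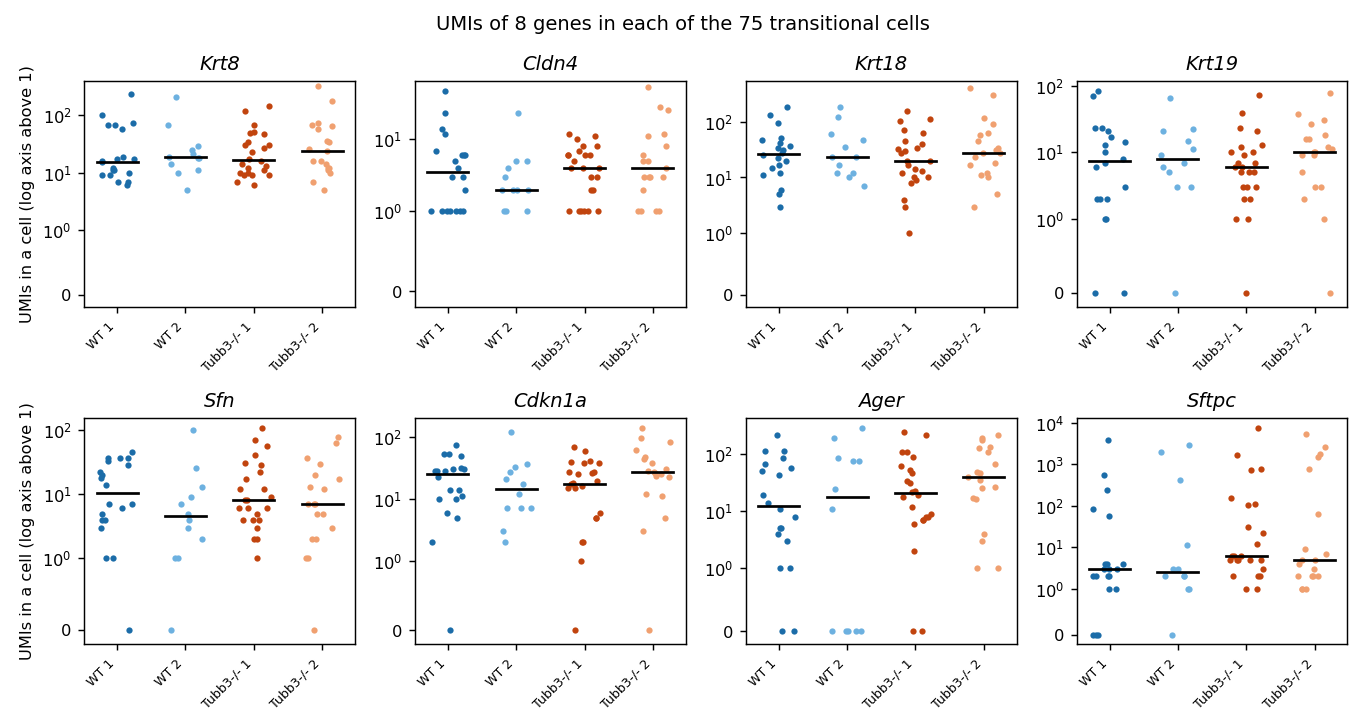
UMIs per cell (y axis, logarithmic above 1) of *Krt8*, *Cldn4*, *Krt18*, *Krt19*, *Sfn*, *Cdkn1a*, *Ager* and *Sftpc* in the 75 transitional cells, by mouse, with 1 point per cell and a bar at each mouse's median. Keratin genes, *Sfn* and *Cdkn1a* overlapped between the 4 mice, whereas *Sftpc* ran from 0 to 7414 UMIs with most cells at the bottom of that range.

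The limits of the rule cut through a continuum. Of the 75 cells, 2 had exactly 5 *Krt8* UMIs, 13 had 5 to 9, and 20 had a single *Cldn4* UMI. Just outside, 7 cells had *Cldn4* with 3 or 4 *Krt8* UMIs. A further 128 cells met the *Krt8* limit without *Cldn4*, and *Sftpc* was at 98441 CPM in them against 21521 in the transitional cells. Of 266 cells with the required genes, 50 were left out only because of *Msln*, a mesothelial gene, and 21 of these had 1 *Msln* UMI. In these 50 cells, *Krt8* was at 1472 CPM, beside 1919 in the 75 cells, and *Cldn4* at 299.5 beside 317.5. Other mesothelial genes were rare in them, with *Upk3b* in 5, *Wt1* in 4 and *Lrrn4* in 3 of the 50.

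*Krt8* and *Krt18* are neighbors on chromosome 15 (GRCm38, GENCODE vM21). *Krt8* lies on the minus strand at chr15:101996698-102004482 and *Krt18* on the plus strand at chr15:102028180-102032027, so that they are read away from each other from starts 23698 bases apart. Across the 75 cells their UMIs per total ranked alike (Spearman's rho 0.71, and 0.61 over 73 cells thinned to 5000 UMIs; the cells share 8 libraries and their base of total UMIs). *Krt8* with *Cdkn1a* gave -0.0029, and *Krt8* with *Cldn4*, which is also in the rule, gave 0.37 (0.15 when thinned). Because the keratin pair varied together, the promoters of both are shown, from 250 bases before to 50 after the start given by RefSeq (GRCm38.p6, chr15:102004293-102004592 on the minus strand and chr15:102027966-102028265 on the plus strand), with matches to TATAAA in capitals on either strand.
Krt8: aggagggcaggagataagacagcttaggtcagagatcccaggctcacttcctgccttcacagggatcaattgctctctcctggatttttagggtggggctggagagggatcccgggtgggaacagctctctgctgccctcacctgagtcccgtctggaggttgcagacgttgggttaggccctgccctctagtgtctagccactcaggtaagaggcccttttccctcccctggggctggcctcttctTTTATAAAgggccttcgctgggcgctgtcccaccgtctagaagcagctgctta
Krt18: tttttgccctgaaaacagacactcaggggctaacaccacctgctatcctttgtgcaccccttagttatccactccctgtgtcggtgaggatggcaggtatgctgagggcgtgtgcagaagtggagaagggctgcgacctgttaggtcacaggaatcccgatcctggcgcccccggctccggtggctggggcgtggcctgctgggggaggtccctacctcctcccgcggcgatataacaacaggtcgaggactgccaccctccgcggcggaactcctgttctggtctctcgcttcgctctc
The *Krt8* window held 2 overlapping matches to the TATA box TATAAA, 1 on each strand, and the *Krt18* window none. Of 32851 promoters of this length, 13.6% held it. Neither window held the AP-1 motif TGANTCA, the TEAD motif GGAATG or the GC box GGGCGG on either strand, which 7.81%, 14.7% and 35.7% of the promoters held.

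The cells differed in how far they carried AT1 and AT2 genes. *Ager*, the AT1 receptor RAGE, had a median of 23 UMIs, and 57 of the 75 cells had at least 5. *Sftpc*, the AT2 surfactant protein C, had a median of 4 UMIs, beside 3 in 5380 immune cells that should lack it (95th percentile 7, median depth 7893 UMIs), and 23 cells had at least 20. All 23 cells with at least 20 *Sftpc* UMIs also had at least 5 of *Ager*, as did 34 of the 52 cells below that limit. The same was so of 137 of 151 AT2 cells, whereas immune cells had a median of 0 *Ager* UMIs.

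Fixed limits were *Ager* at least 5 with *Hopx* for AT1 genes and *Sftpc* at least 20 with *Lamp3* for AT2 genes. By these, 37 cells met the AT1 limits only, 5 the AT2 limits only, 9 both and 24 neither. The names used below stand for these limits, which a cell without a *Hopx* or *Lamp3* UMI failed at any *Ager* or *Sftpc* level. All 5 cells with AT2 genes only had 11 to 76 *Ager* UMIs but no *Hopx*. A cell with AT1 genes only had 1713 *Sftpc* UMIs, and 1 with neither set had 408 *Sftpc* and 86 *Ager* UMIs. The part of such missing UMIs in the levels and shares below was not tested. *Hopx* encodes a homeodomain protein of AT1 cells and *Lamp3* a lamellar body protein of AT2 cells. The 24 cells with neither set had *Krt8* at 2210 CPM, *Nupr1*, a stress response gene, at 2731 and *Sfn* at 1201. In the 37 cells with AT1 genes these were at 1916, 528 and 666 CPM, and *Ager* was at 3543 against 517 in the cells with neither set. *Clu*, encoding clusterin, ran the other way, at 1386 CPM in the cells with neither set and 3131, 4481 and 4441 in those with AT1 genes, AT2 genes and both. *Acta2* and *Myh11*, contractile genes of mural cells, were at 1056 and 255 CPM in the cells with neither set and at 445 and 63.7 in those with AT1 genes. The 3 cells marked as doublets held 548 of the 835 *Acta2* UMIs of all 75 cells. Without them *Acta2* was at 268 and 178 CPM in the cells with neither set and those with AT1 genes, while *Nupr1* was at 3082 and 546 and *Sfn* at 1353 and 689. These levels are sums over cells of all mice, and levels within mice were not compared. Of the 885 *Krt8* UMIs in the cells with neither set, 2 WT cells held 227 and 207. Of the 1534 in cells with AT1 genes, 1 *Tubb3*-/- cell held 314. The cells with neither set numbered 9 and 6 in WT and 5 and 4 in *Tubb3*-/- mice.

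**Figure D2:**
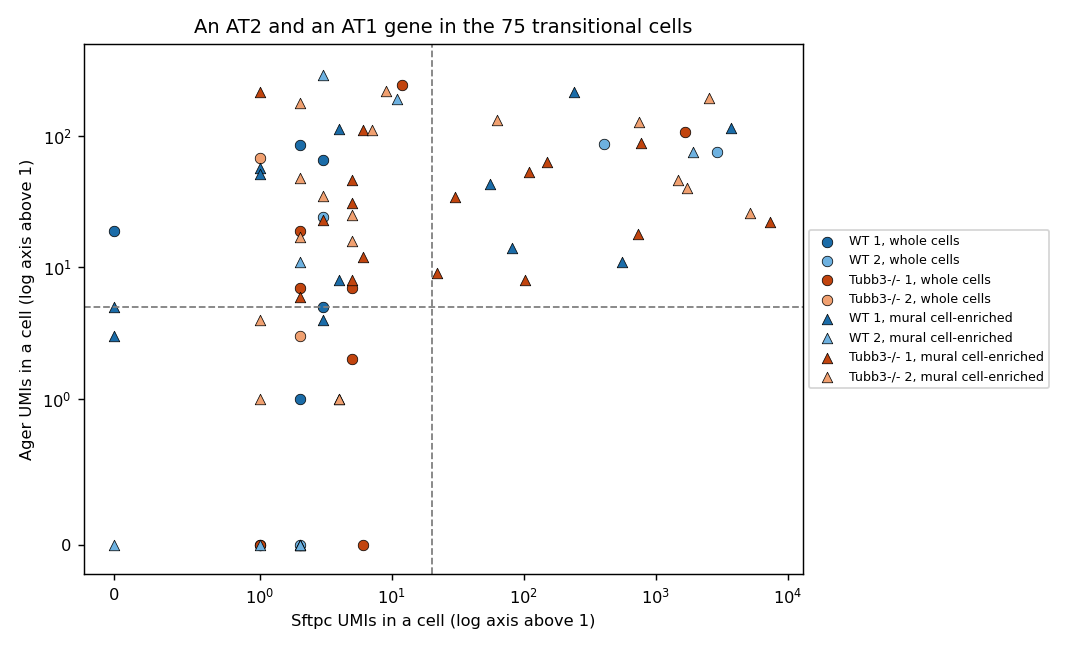
*Sftpc* (x axis) against *Ager* (y axis), in UMIs per cell on axes that are logarithmic above 1, for the 75 transitional cells colored by mouse, with circles for whole-cell and triangles for mural cell-enriched libraries and dashed lines at 20 *Sftpc* and 5 *Ager* UMIs. All 23 cells right of the vertical line lie above the horizontal line, and 18 of the 52 cells left of it lie below.

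The share of cells with AT1 genes only was 45% and 33.3% for WT against 54.2% and 57.9% for *Tubb3*-/- mice, and that of cells with neither set was 45% and 50% against 20.8% and 21.1%. The genotypes did not overlap in either share, nor without the 3 doublets, where the first was 47.4% and 36.4% against 52.2% and 57.9% and the second 42.1% and 45.5% against 21.7% and 21.1% (exact p = 0.333 for both). The depth of the cells differed between the genotypes as given above, so each of 73 cells was thinned to 5000 UMIs, with limits of 2 *Ager* and 5 *Sftpc* UMIs chosen after seeing the data. The share with AT1 genes was then 21.1% and 16.7% against 39.1% and 42.1%, and that with neither set 68.4% and 66.7% against 52.2% and 42.1%. An exact two-sided permutation test gave p = 0.333 for each of these 4 differences, the smallest p that 2 mice against 2 allow. The whole-cell libraries gave 10 of the 24 cells with neither set and 8 of the 37 with AT1 genes, and the part of the library in these shares was not tested.

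**Figure D3:**
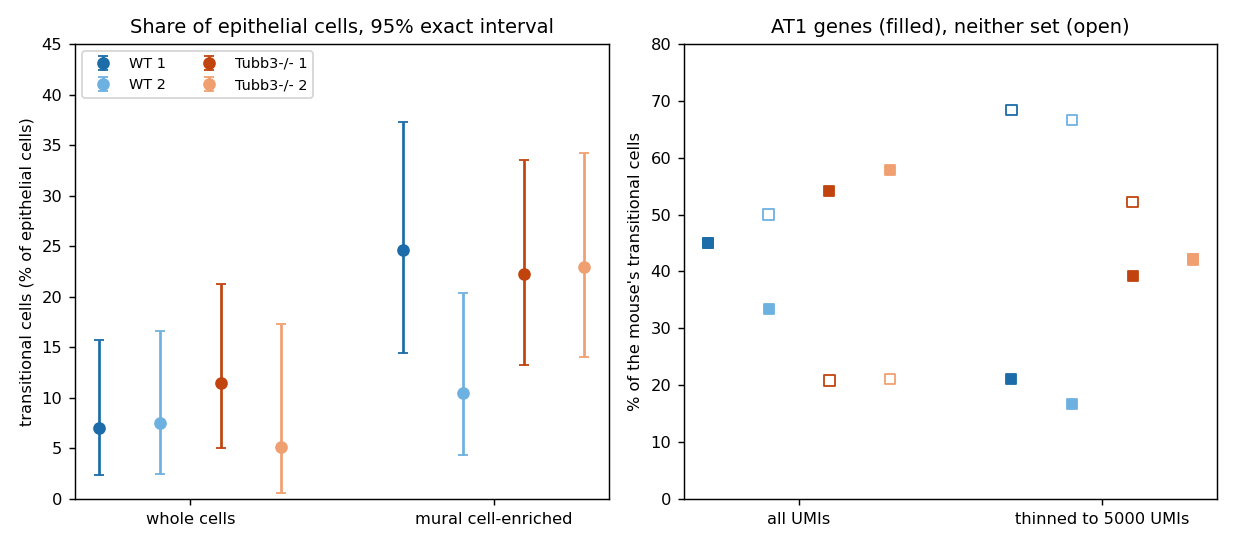
Left, transitional cells as a percentage of epithelial cells (y axis) in each mouse's whole-cell and mural cell-enriched library, with exact 95% binomial intervals. Right, the percentage of a mouse's transitional cells with AT1 genes only (filled) and with neither gene set (open), from all UMIs and after thinning to 5000 UMIs; the *Tubb3*-/- mice lie above the WT mice in the filled and below them in the open squares, and at all UMIs both squares of WT mouse 1 coincide at 45%.

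Beside the other alveolar cells of the same mice, the transitional cells had higher *Krt18* than both classes, lower AT1 genes than AT1 cells and lower AT2 genes than AT2 cells. AT2 genes were nevertheless above AT1 cells, with 11 of 14 higher in all 4 mice and 4 at least 2-fold so (median log2 difference 1.92). The 116 AT1 and 151 AT2 cells were defined by UMIs of *Ager* and *Hopx* or of *Sftpc* and *Lamp3*. A cell that met both definitions was counted as AT2, which kept cells rich in AT2 RNA out of the AT1 but not the transitional class. The part of this order in the difference from AT1 cells was not tested. Among transitional cells, *Sftpb* was at 3458 and 2705 CPM in those with AT2 genes only and with both sets. It was at 285 and 42.4 CPM in those with AT1 genes only and with neither. Levels are CPM with TMM normalization, folds were taken within each mouse after adding 5 CPM, and 4375 genes reached a mean of 50 CPM in at least 1 of the 3 classes. At least 2-fold in all 4 mice, 60 genes (1.37%) were above and 193 (4.41%) below AT1 cells, and 69 (1.58%) were above and 224 (5.12%) below AT2 cells. The 8 genes (0.183%) above both were *AW112010*, *Tnip3*, *Basp1*, *Krt18*, *S100a10*, *Eif4ebp1*, *Ly6g6c* and *Clic1*, and 11 genes (0.251%) were below both.

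*Krt18* was at 2229, 2378, 1624 and 2678 CPM in the transitional cells of WT mice 1 and 2 and *Tubb3*-/- mice 1 and 2, with 409 to 644 in AT1 and 387 to 513 in AT2 cells. *S100a10*, encoding the p11 light chain that binds annexin A2, was at 1292, 1163, 1082 and 2674 CPM, against 457 to 538 and 293 to 424. *AW112010*, an interferon-responsive transcript, was at 152, 142, 129 and 80.6 CPM, against 7.75 to 25.3 in AT1 and 3.88 to 9.91 in AT2 cells. *Tnip3*, an inhibitor of NF-kB signalling, was at 152, 85.9, 83.5 and 74.4 CPM against at most 21.9 in AT1 and 11.6 in AT2 cells. Each of these was higher in the transitional cells of every mouse, without overlap with either class. For *Tnip3* in *Tubb3*-/- mouse 2 this rested on 1 cell with 35 of that mouse's 36 UMIs, without which its unnormalised level fell from 77.7 to 2.32 CPM.

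*Basp1*, encoding a membrane-attached signal protein, was at 27.1, 21.5, 36.1 and 149 CPM in the transitional cells and at most 8.42 in AT1 and 5.81 in AT2 cells. *Eif4ebp1*, encoding the translation repressor 4E-BP1, was at 86.7, 68.7, 66.4 and 78.5 CPM, against 23.2 to 27.0 in AT1 and at most 25.3 in AT2 cells. *Clic1*, an intracellular chloride channel gene, was at 620, 537, 455 and 597 CPM, against 98.8 to 217 and 182 to 231. *Ly6g6c* owed 500 of its 530 UMIs (94.3%) to 1 cell of *Tubb3*-/- mouse 2. The next in order, just under 2-fold in 1 mouse, were *Galnt3*, a mucin-type glycosyltransferase gene, and *Ly6a*, encoding the surface protein Sca-1, for which 53.4% of 635 UMIs lay in 1 cell.

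Of 23 genes named for the transitional state and not used by the rule, *Krt18* and *Tnip3* among them, 11 were at least 2-fold above AT2 cells in every mouse and 3, these 2 and *Nupr1*, at least 2-fold above AT1 cells, with no gene at least 2-fold below either. Their median difference was 1.06 (log2) from AT1 and 1.74 from AT2 cells, where all 4375 genes had 0.06 and -0.01. *Nupr1* was at 1858, 713, 1013 and 428 CPM against 58.6 to 182 in AT1 and 310.0 to 545 in AT2 cells. *Sfn* was at 888, 730, 882 and 638 CPM against 63.9 to 458 and 116 to 296. *Krt19* was at 826, 721, 505 and 616 CPM against 382 to 581 in AT1 cells, a difference of 1.20- to 1.77-fold, and 70.5 to 152 in AT2 cells. *Krt7*, *Itgb6*, the subunit of the TGF-beta activating integrin alpha-v beta-6, and *Ccn2*, a YAP target, were not set apart from AT1 cells in this way. *Itgb6* was at 217, 116, 180 and 114 CPM in the transitional and 266 to 472 in AT1 cells, lower than in AT1 cells in every mouse.

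Among 13 AT1 markers not used by the class rules, 9 were at least 2-fold below AT1 cells in every mouse and all 13 were lower in every mouse. *Igfbp2*, a gene of late AT1 cells, was at 10.8, 47.2, 1.90 and 4.13 CPM against 585 to 1852 in AT1 cells, and *Rtkn2* at 67.7, 112, 197 and 86.8 against 1319 to 2624. *Pdpn*, encoding podoplanin, was at 53.1 to 80.6 CPM against 307 to 679. All 14 AT2 markers not used by the rules were at least 2-fold below AT2 cells in every mouse, among them *Slc34a2*, a phosphate transporter gene, at 37.9, 129, 43.6 and 223 against 2662 to 4541 CPM. *Scd1*, the desaturase of surfactant lipid synthesis, was at 691, 1473, 884 and 796 CPM against 6596 to 9024 in AT2 cells.

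The p53 target list was 4731 CPM in sum in the transitional cells, 3506 in AT1 and 2268 in AT2 cells. Of its 21 genes, 1 was at least 2-fold above AT2 cells in all mice and none was so above AT1 cells, while 8 and 10 were above AT1 and AT2 cells by any amount in every mouse, none was below AT1 and 1 was below AT2 cells in this way. Of all 4375 genes, 25.9% were above and 24.7% below AT1 cells in every mouse, and 24.9% were above and 28% below AT2 cells. *Cdkn1a* was at 1346, 1245, 994 and 1479 CPM, against 283 to 1265 in AT1 and 256 to 841 in AT2 cells. *Plk2*, a polo-like kinase gene, was at 125, 197, 75.9 and 128 CPM against 13.8 to 52.2 and 36.0 to 101. Of the 19 interferon response genes, 10 were above AT1 and 11 above AT2 cells in every mouse, and 1 was below each class. *H2-K1*, an MHC class I gene, was at 1595, 2125, 2013 and 2240 CPM against 397 to 1107 in AT1 and 1169 to 1967 in AT2 cells, whereas all 7 MHC class II genes were below AT2 cells in every mouse.

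**Figure D4:**
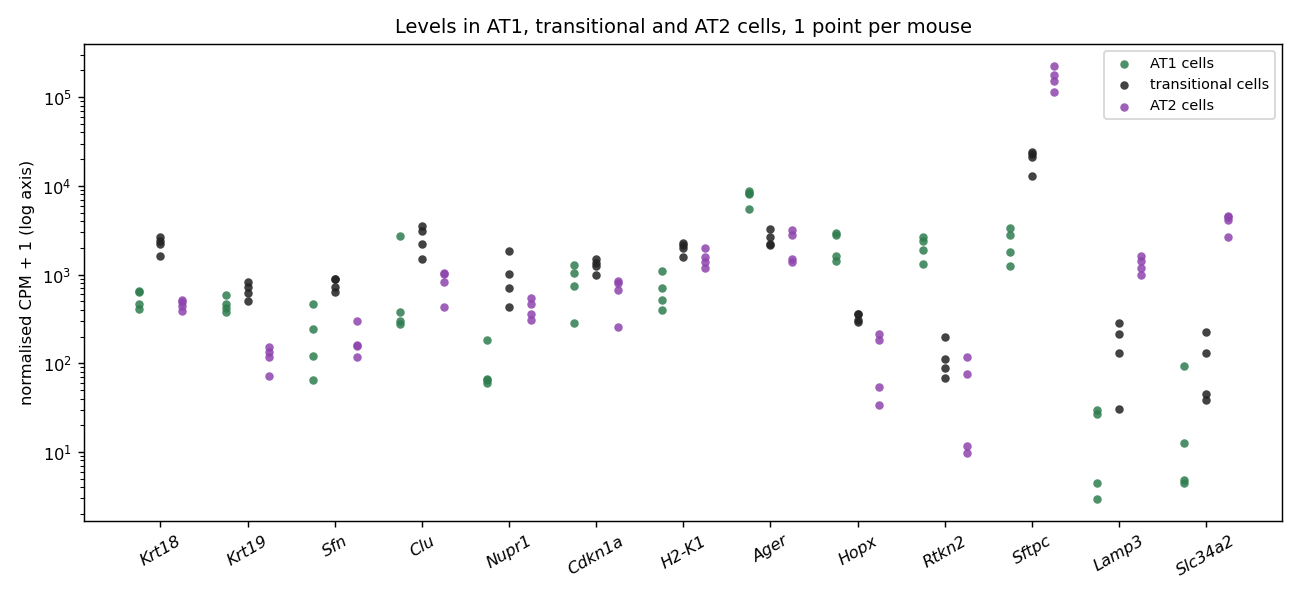
Normalised CPM + 1 (y axis, logarithmic) of 13 genes in AT1 (green), transitional (black) and AT2 (purple) cells, with 1 point per mouse. For *Krt18* the transitional cells lie above both classes without overlap (1624 to 2678 CPM), and for *Hopx* and *Lamp3* they lie between them. *Ager* and *Hopx* were required of AT1 and *Sftpc* and *Lamp3* of AT2 cells, so their order is in part set by the class rules.

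Markers of immune, endothelial, mesothelial and basal cells were low. Over all mice the sum was 37.3 CPM for 10 immune markers (6798 in immune cells), 24.9 for 8 endothelial, 11.8 for 6 mesothelial and 1.31 for 7 basal genes. The defining genes *Ptprc*, *Cdh5*, *Pdgfra*, *Msln*, *Foxj1* and *Cyp2f2* were at 0 by the rule. With *Cyp2f2* and *Foxj1* counted, 5 of 9 club, 3 of 8 ciliated and 5 of 7 basal genes had no UMI. The club genes summed to 479 CPM, beside 350 in AT1, 1352 in AT2 and 874 in immune cells. *Scgb1a1*, a club cell gene, was in 48 of the 75 cells with up to 44 UMIs. The ciliated genes summed to 121 CPM, beside 247 in AT1 and 78.9 in AT2 cells. The 8 fibroblast markers summed to 492 and 468 CPM in WT and 822 and 416 in *Tubb3*-/- mice, and the 8 mural markers to 1193, 673, 1027 and 334. AT1 cells held 691 and 722 CPM and AT2 cells 402 and 327 CPM of these lists. The 3 doublets held 816 of the 1231 mural marker UMIs, and without them the mural sum was 231, 218, 308 and 334 CPM in the 4 mice and the fibroblast sum 452, 387, 705 and 416. The part of such RNA in the results was not tested, but the genotype test without doublets gave the same count of 1 called gene.

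No difference between the genotypes in the share of transitional cells among epithelial cells was detectable. In the whole-cell libraries, which were not depleted of epithelium, they were 7.04% (5 of 71; exact 95% interval 2.33 to 15.7%) and 7.46% (5 of 67; 2.47 to 16.6%) in WT mice. In *Tubb3*-/- mice they were 11.4% (8 of 70; 5.07 to 21.3%) and 5.13% (2 of 39; 0.627 to 17.3%), so that the genotypes overlapped. The log2 ratio was 0.30 (SE 0.65, edgeR on cell numbers of the 6 classes, adjusted p = 0.98), and an exact two-sided permutation test gave p = 1. In 100 simulations with these cell numbers, the test found a share made 2 times as large in 12%. Intervals cover counting error only.

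Over both libraries the share was 15.2% and 8.96% in WT and 16.9% and 16.8% in *Tubb3*-/- mice (exact p = 0.333), where the depletion of EpCAM+ cells bears on the denominator. The ratio in whole-cell libraries turned below 0 with all cells kept as the denominator (log2 -0.24), at 10 *Krt8* UMIs (-0.0015) and without *Tubb3*-/- mouse 1 (-0.48). With every cell thinned to 5000 UMIs it rose to 0.86 (SE 0.69). The shares were then 5.94% and 2.06% in WT and 7.78% and 6.90% in *Tubb3*-/- mice, without overlap (exact permutation p = 0.333). The rule was applied anew to the thinned counts, so a different set of cells was compared. Over both libraries, 62 cells met it among 718 epithelial cells, where 75 of 521 did before thinning. The whole-cell libraries held 6 and 2 of these in WT and 7 and 4 in *Tubb3*-/- mice.

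Of 6194 genes tested on UMIs summed per mouse over both libraries, 1 (0.0161%) differed between the genotypes (edgeR's quasi-likelihood test, Benjamini-Hochberg adjusted p under 0.05). This gene was *Csf2*, encoding the growth factor GM-CSF (chr11:54247271-54249667, minus strand, overlapping *Gm12223* on the other strand). It was at 119 and 347 normalised CPM in WT mice and at 0 in both *Tubb3*-/- mice (adjusted p = 0.0318), at least 61.5-fold lower against a floor of 3 counts over the *Tubb3*-/- mice. Its 109 UMIs came from 3 of 32 WT cells, with 70 in 1 cell of WT mouse 2, and 38 and 1 in cells of WT mouse 1. *Csf2* had 9 UMIs in AT2 and none in AT1 cells. A single cell held nearly all *Csf2* UMIs of each WT mouse, and without the cell with 70 UMIs the genotypes overlapped. The call was lost with cells thinned to 5000 UMIs (adjusted p = 0.603), at 10 or more *Krt8* UMIs (0.0757), without TMM (0.0611) and with *Msln* allowed (0.0506, chosen after seeing the data), and the lowest adjusted p over the alternatives was 9.64e-26 without a filter.

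At an unadjusted p under 0.05 there were 241 genes (3.89%), of which 127 (2.05%) were higher and 114 (1.84%) lower, and the genotypes did not overlap for 997 genes higher (16.1%) and 958 lower (15.5%). On simulated counts with these depths the test recovered 32.5% of genes changed by 1.5 and 84.5% of those changed by 2.5 on the log2 scale. Counts were sensitive to single mice, with 11 genes called without WT mouse 1, 4 without WT mouse 2, 88 without *Tubb3*-/- mouse 1 and 60 without *Tubb3*-/- mouse 2. The labels name separate mice, so the tests were run on sums per mouse. With 2 mice per genotype, the spread behind each gene's p-value was in part shared across genes. Sums over 12 to 24 cells per mouse also carry the sampling of cells.

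The 20 genes with the smallest p among those with at least 10 CPM and no overlap are given as values, since of these the test called only *Csf2*. Of the 10 on the higher side, *Gpx2*, a glutathione peroxidase gene, was at 42.8 and 39.7 CPM in WT and 135 and 138 in *Tubb3*-/- mice (log2 1.71, SE 0.36, adjusted p = 0.416), and without 1 cell the unnormalised level of *Tubb3*-/- mouse 1 fell from 127 to 57.2 CPM. *Lrrk2*, a kinase gene of AT2 cells, was at 30.6 and 24.8 against 116 and 142 CPM, and without 1 cell the unnormalised level of *Tubb3*-/- mouse 2 fell from 134 to 41.8. *Fabp5*, a fatty acid-binding protein gene, was at 36.7 and 19.9 against 404 and 142 CPM, *Chil1*, a chitinase-like gene, at 48.9 and 89.3 against 650 and 218, and *Lyz2*, encoding lysozyme, at 489 and 253 against 856 and 2499. For the last 3, 1 cell of a *Tubb3*-/- mouse held 65.4%, 63.6% and 53.7% of the UMIs, and without that cell the genotypes overlapped. *Sftpa1*, a surfactant protein gene, was at 1230 and 1717 against 2568 and 3913 CPM, with a reversed sign (log2 -2.47) in the whole-cell libraries alone. *Cbr3*, *Gm42047*, *Mgmt*, a DNA repair gene, and *Cdkn1c*, which encodes the cell cycle inhibitor p57, made up the rest, with 49 to 103 UMIs each.

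On the lower side after *Csf2* stood *Cyp4b1*, a cytochrome P450 gene, at 144 and 169 CPM in WT and 34.4 and 27.5 in *Tubb3*-/- mice (log2 -2.31, SE 0.37, adjusted p = 0.198). A single cell held 36 of the 47 UMIs of WT mouse 1, without which its unnormalised level fell from 133 to 33.0 CPM, beside 32.2 in *Tubb3*-/- mouse 1. In AT1 cells the same gene was called in its own test, at 429 and 452 against 149 and 153 CPM (log2 -1.54, adjusted p = 0.0216), and in AT2 cells the genotypes overlapped (log2 0.35, adjusted p = 0.95). *Itga2*, encoding the collagen-binding integrin alpha-2, was at 73.4 and 64.5 against 8.60 and 4.59 CPM, with 43 UMIs in 10 cells, of which 1 held 11 of the 13 in WT mouse 2 (10.3 CPM without it, beside 8.05 in *Tubb3*-/- mouse 1, unnormalised). *Sec14l3*, a lipid-binding protein gene, was at 135 and 298 against 51.6 and 48.2 CPM, and *Hist1h1c*, a linker histone gene, at 266 and 417 against 98.9 and 112. Without 1 cell of WT mouse 2, *Hist1h1c* fell there from 393 to 111 CPM, beside 92.6 and 106 in *Tubb3*-/- mice (unnormalised). *2610028H24Rik*, *Fbxo32*, *Trim47*, *Plb1* and *Nrxn3* completed the 10, the last with 18 UMIs in 5 cells. Of all 20, 15 did not overlap when the cell with the most UMIs was left out, several by narrow margins as given.

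**Figure D5:**
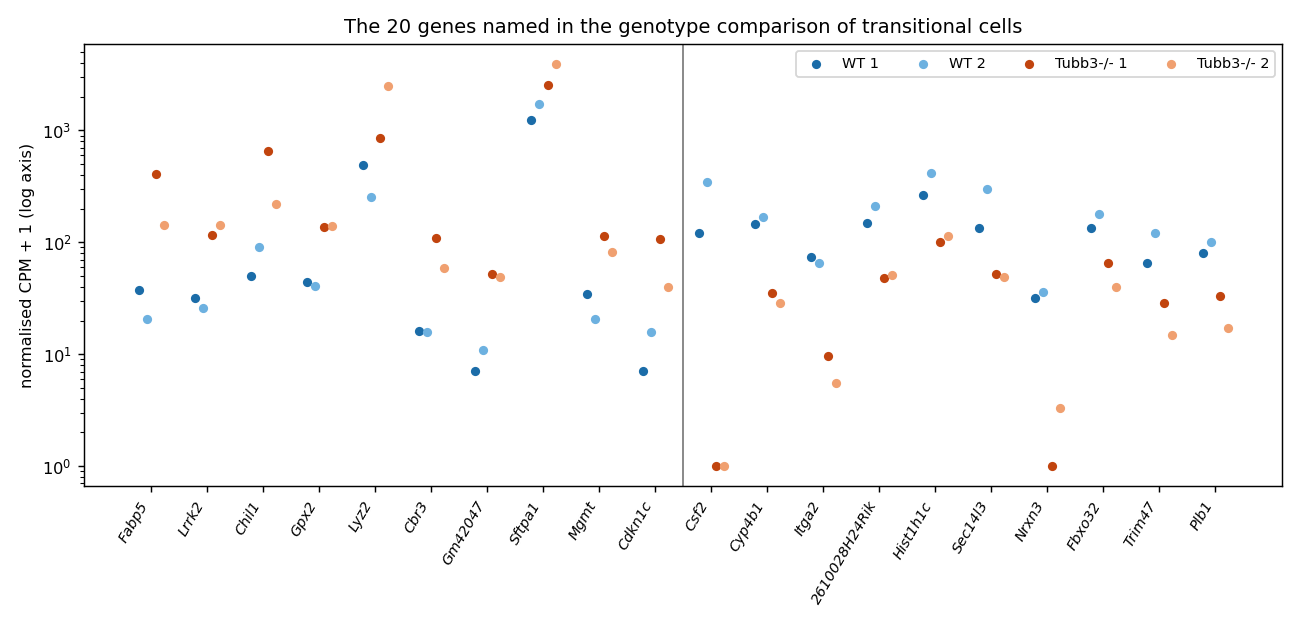
Normalised CPM + 1 (y axis, logarithmic) in transitional cells of WT (blue) and *Tubb3*-/- (orange) mice, 1 point per mouse, for the 10 genes with the smallest p on the higher (left) and lower (right) side. The genotypes do not overlap for any of the 20 by the way they were chosen, and only *Csf2*, at 0 in both *Tubb3*-/- mice, passed the test.

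The state markers gave no call. *Krt8* and *Cldn4* chose the cells in every mouse and are given as a description, with *Krt8* at 2313 and 2198 CPM in WT and 1641 and 2224 in *Tubb3*-/- mice and *Cldn4* at 444 and 253 against 243 and 404. *Cdkn1a* was at 1520 and 1439 against 1127 and 1643 CPM. *Sfn* was at 1003 and 844 against 1000 and 709 CPM, and *Krt19* at 933 and 834 against 572 and 684 (log2 -0.49, SE 0.25, adjusted p = 0.999), lower in both *Tubb3*-/- mice. *Clu* was at 2487 and 1712 against 4020 and 3417 CPM (log2 0.82, SE 0.24, unadjusted p = 0.0062) and *S100a6*, a calcium-binding protein gene, at 3735 and 3583 against 5747 and 5568. Of 23 state markers, 4 were higher and 3 lower without overlap, near the 16.1% and 15.5% of all genes. *Fn1*, encoding fibronectin, and *Sprr1a*, a cornified envelope gene, each stood high in *Tubb3*-/- mouse 2 through 1 cell, with 709 of 1037 and 444 of 750 UMIs.

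AT1 and AT2 genes likewise gave no call. *Ager* was at 2496 and 3742 against 2433 and 2968 CPM, and *Sftpc* at 14400 and 26263 against 23841 and 27056, both with overlap. Of the 16 AT2 markers, 6 were higher and none lower without overlap, with a median log2 change of 0.62, where all genes had -0.0005 and 16.1% were higher without overlap. For *Lyz2* and *Sftpa1*, 2 of the 6, the log2 change depended on the *Krt8* limit. It was 2.16 and 1.14 with the rule, 0.17 and 0.08 at 3 *Krt8* UMIs, and 0.87 and 0.65 at 10. A cell with exactly 5 *Krt8* UMIs held 912 of the 1089 *Lyz2* UMIs of *Tubb3*-/- mouse 2. Another cell held 7414 of the 11085 *Sftpc* UMIs of *Tubb3*-/- mouse 1. *Sftpb*, surfactant protein B, was at 312 and 670 against 1065 and 1134 CPM (log2 1.18, SE 0.34, unadjusted p = 0.0052), and *Fasn*, fatty acid synthase, at 52.0 and 59.6 against 118 and 84.9. Of 15 AT1 markers tested, 3 were higher and 1 lower without overlap, with a median of -0.04.

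Of 19 p53 targets tested, 8 were higher and none lower without overlap, with a median log2 change of 0.37 and no call, where 16.1% of all genes were higher and 15.5% lower without overlap. *Mdm2*, which encodes the ligase that degrades p53, was at 128 and 159 against 325 and 266 CPM (log2 1.05, SE 0.31, unadjusted p = 0.006). A single cell held 63 of the 151 *Mdm2* UMIs of *Tubb3*-/- mouse 1. Without it that mouse's unnormalised level fell from 304 to 186 CPM, beside 119 and 150 in WT mice. *Bax*, a mediator of apoptosis, was at 324 and 347 against 402 and 523 CPM, and *Aen*, an exonuclease gene, at 76.5 and 59.6 against 120 and 103. *Trp53* itself was at 61.2 and 54.6 against 94.6 and 68.9 CPM. Without 1 cell, *Trp53* in *Tubb3*-/- mouse 2 fell from 64.7 to 54.0 CPM (unnormalised), below the 56.6 of WT mouse 1. *Cdkn1a*, the most widely used target, overlapped as given above.

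Tubulin genes, of which *Tubb3* is 1, ran lower in 5 of 8 tested genes without overlap and higher in none, with a median of -0.32 and no call (15.5% of all genes were lower without overlap). *Tuba1a* was at 385 and 238 against 146 and 195 CPM (log2 -0.88, SE 0.33, unadjusted p = 0.023) and *Tubb4b* at 820 and 784 against 447 and 631. Of 11 NF-kB and cytokine genes, 5 were lower and 1 higher without overlap (15.5% and 16.1% of all genes), with a median of -0.30. *Nfkbia*, the inhibitor induced by NF-kB, was at 557 and 1380 against 372 and 420 CPM, and *Cxcl1*, a neutrophil chemokine gene, at 67.3 and 159 against 62.4 and 23.0. *Tslp* and *Cxcl2* owed 94% and 85.2% of their UMIs to 1 WT cell each.

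The TGF-beta list had 4 of 13 genes lower and none higher without overlap (median -0.21), where 15.5% of all genes were lower and 16.1% higher, the shares that also bear on the next lists. *Tgfb3*, a TGF-beta ligand gene, was at 52.0 and 39.7 against 17.2 and 11.5 CPM, and *Itgb6* at 245 and 134 against 204 and 126, with overlap. Of 6 MHC class II genes, 3 were lower without overlap (median -0.55), and *H2-Aa* was at 358 and 352 against 88.2 and 273 CPM. The interferon list had 4 of 15 higher and 1 lower. *Cxcl10*, an interferon-induced chemokine gene, was at 6.12 and 44.7 against 123 and 96.4 CPM (adjusted p = 0.81), with 44.5% of 110 UMIs in 1 cell, and *Ifit1* owed 89.3% of its UMIs to 1 cell of *Tubb3*-/- mouse 2. Keratins, junction genes, YAP targets, glycolysis and lung transcription factor genes had medians between -0.13 and -0.01 and gave no call.

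Whether the genotype difference in transitional cells was unlike that in other alveolar cells was tested with a class by genotype term. Against AT1 cells it differed for 2 of 7312 genes (0.0274%), *Scd1* and *Cxcl17*, and against AT2 cells for none of 7790 (0%; 472 had an unadjusted p under 0.05). In both genes the genotypes overlapped in the transitional cells and differed in AT1 cells. *Scd1* was at 691 and 1473 CPM in WT and 884 and 796 in *Tubb3*-/- transitional cells, and at 44.8 and 34.9 against 590 and 494 in AT1 cells (log2 difference -4.07, SE 0.48, adjusted p = 0.0024). *Cxcl17*, encoding a mucosal chemokine, was at 43.3 and 73.0 against 53.1 and 130 CPM, and at 0 and 1.94 against 47.2 and 186 in AT1 cells (adjusted p = 0.040). *Sftpc* in the AT1 cells was at 1790 and 1232 against 2771 and 3323 CPM, and its part in these values was not tested.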

How the data were processed

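Single-cell RNA-seq was made from lungs of 2 WT and 2 *Tubb3*-/- mice after bleomycin, as whole cells and as mural cell-enriched cells. The authors deposited UMI counts per gene and cell, which are whole numbers without normalization. Cell Ranger 7.1.0 and mm10 are named in the submitters' processing notes. The mouse of each cell came from its tag. Tag counts were set aside, and the tag libraries were not used here.

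Cells with 200 to 7500 genes and at most 15% mitochondrial UMIs were kept, and the rule was applied in Python 3.11.15. Members and gene lists were chosen with earlier results of these data known. Doublets were scored with Scrublet (scanpy 1.11.5) as an alternative only, with a score limit of 0.25, chosen after seeing the data, in the whole-cell pool, where its automatic threshold failed.

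Counts summed per mouse went into edgeR's quasi-likelihood test (version 4.0.16, R 4.3.3) after TMM normalization and filterByExpr, with Benjamini-Hochberg adjustment and a threshold of 0.05. The interaction test used the mouse as a block. DESeq2 1.42.0 was an alternative. Values without the doublets or without the cell with the most UMIs of a gene were alternatives added after seeing the data. Values per mouse are TMM-normalised CPM in these fits and unnormalised CPM for cell states and list sums. Shares were also compared with exact permutation tests over mice. Tests were tried on simulated data with 200 changed genes. CPM depends on the RNA of a cell, and a sum alone does not tell fewer cells with a gene from less of it per cell. For some genes the number of cells with a UMI is therefore given.

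The genes named were those of the rule and markers, listed genes with the smallest p or highest level, the 10 with the smallest p in each direction among genes with at least 10 CPM and no overlap, and the 10 with the highest smallest fold over both classes at 50 CPM or more. Single genes outside this (*Trp53*, *Ly6a*, *Galnt3* and the genes decided by 1 cell) were singled out after their values were seen. Promoters came from RefSeq (GRCm38.p6), in which 7 of the 10 genes highest beside both classes matched. Whether counting used strand is not given in the sources used here.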

Additional observations from a re-analysis of the deposited data

Results flagged for a closer look

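For 2 genes the difference between genotypes was unlike in transitional and AT1 cells by the test of that difference. For *Scd1* the log2 change in transitional cells minus that in AT1 cells was -4.07 (adjusted p = 0.0024, edgeR), and a *Scd1* UMI was present in 19 of 20, 9 of 12, 21 of 24 and 16 of 19 transitional cells of the 4 mice. For *Cxcl17* this value was -5.58 (SE 0.87, adjusted p = 0.040), with UMIs in 7, 4, 7 and 10 transitional cells of WT mice 1 and 2 and *Tubb3*-/- mice 1 and 2. In both genes the genotypes differed in the AT1 and overlapped in the transitional cells. The AT1 cells numbered 21 and 35 in WT and 38 and 22 in *Tubb3*-/- mice. How far single AT1 cells held the UMIs of these genes was not tested. Groups of 2 mice are too small for a test of outlying samples.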

How the results depend on the processing

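The count of genes called between genotypes (1) was 0 with whole-cell libraries alone (50 at an unadjusted p under 0.05), mural cell-enriched libraries alone (176), cells thinned to 5000 UMIs (108), at least 10 *Krt8* UMIs (263), library totals without TMM (237) and, chosen after seeing the data, *Msln* allowed (307). It was 4 with DESeq2, 83 without a filter, 12 with the replicate block and 4 to 88 without 1 mouse. With whole-cell or mural cell-enriched libraries alone, where 1824 and 5282 genes were tested, *Csf2* did not pass the filter and was not tested. Named genes had values only in the settings where they passed the filter. Same-numbered mice deviated together with a correlation of 0.16, a pairing by number alone. With 2 mice per genotype the deviations mirror each other, so both pairs must give the same value. The log2 ratio of shares turned to -0.24 with all cells kept as the denominator and to -0.00145 at 10 *Krt8* UMIs. It ran from -0.48 to 0.64 without 1 mouse, and was 0.24 with the replicate block. It was 0.86 with cells thinned to 5000 UMIs and the rule applied anew to the thinned counts. The interaction counts became 49 (AT1) and 88 (AT2) without a filter, and 1 and 3 in whole-cell libraries alone. By alternatives chosen after seeing the data, the genes at least 2-fold above both classes (8) numbered 4 in mural cell-enriched libraries. Those below both (11) numbered 4 there, 52 when thinned, 7 at 3 *Krt8* UMIs and 7 with doublets removed. Of 287 values of the 20 named genes, 226 kept their side of the threshold, 56 passed it, 4 (all *Csf2*) lost it, and 1 reversed, *Sftpa1* at -2.47 in whole-cell libraries alone. The cause was not tested. With 12 to 24 cells per mouse, most differences below 1.5 on the log2 scale were not detectable.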
